A study of Mus musculus with 24 samples.

Results

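The cytosolic ribosomal protein genes were taken as every probe set of the array whose 1 annotated gene symbol was Rpl or Rps followed by a number, or Rplp0, Rplp1 or Rplp2. Rps6k kinases and pseudogenes were left out. The rule found 46 probe sets for 32 genes among 12422 probe sets that were not controls, of which 10833 carried 1 gene name. Of the 46, 21 probe sets (16 genes) belonged to the large subunit and 25 probe sets (16 genes) to the small subunit. The rule reads gene names only. Mouse lung RNA was measured on 24 Affymetrix arrays, 1 sample per array. C57BL/6J or BALB/c mice had received bleomycin at 1.5 U per kg into the trachea, or saline, and lungs were taken after 24 h, 72 h or 14 d. Each of the 12 combinations of strain, treatment and time had 2 arrays, lettered a and b. Bleomycin, which cuts DNA strands, serves as a mouse model of lung fibrosis. Separate animals for a and b are not stated, so each p-value measures only the spread between these arrays, which may be technical. Whole lung is a mixture of cells, and fewer cells of a type and less RNA per cell cannot be told apart.

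The cytosolic ribosome joins a small subunit, which holds the mRNA and reads its codons, to a large subunit, which forms the peptide bonds. Ribosomal protein mRNAs are among the most abundant in mammalian cells, and their translation is raised by mTOR signalling through a pyrimidine tract at their 5′ end. Several ribosomal proteins also act outside the ribosome, for example by binding Mdm2 when ribosome assembly is disturbed, which stabilises p53. The genes have many near-identical processed pseudogenes in the mouse genome, and a probe set with 1 annotated name can still read such copies, so the name of each signal is uncertain to that extent.

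Promoter windows of RefSeq on GRCm38.p6, from 250 bases before to 50 bases after the annotated start, were found for 25 of the 32 genes. Letters were searched on both strands, and no motif searched contains another. CCGGAAG, a core that ETS factors recognise, was in 10 of the 25 genes (40%) and in 9.9% of all 27025 genes with a window. GCCATNTT, a form of the YY1 core, was in 6 (24% against 7.0%). The pyrimidine stretch CTTTCC was in 15 (60% against 29.3%), GGGCGG in 14 (56% against 38.2%) and TATAAA in 4 (16% against 15.7%). A match describes the letters in the window and shows no binding. The 150 bases before the start are shown for 5 genes whose arrays the results below turn on, with 1 motif of each in capitals. Rpl41 lies at chr10:128549169-128549318, Rps7 at chr12:28635954-28636103, Rps18 at chr17:33955666-33955815, Rps28 at chr17:33824563-33824712 and Rpl13a at chr7:45128746-45128895, each read from the minus strand.
Rpl41: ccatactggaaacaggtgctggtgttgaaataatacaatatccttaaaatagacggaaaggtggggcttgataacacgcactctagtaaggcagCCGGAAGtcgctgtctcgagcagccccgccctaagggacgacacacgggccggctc
Rps7: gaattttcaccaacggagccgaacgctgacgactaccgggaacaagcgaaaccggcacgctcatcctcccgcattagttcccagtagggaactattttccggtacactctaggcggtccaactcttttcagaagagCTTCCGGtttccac
Rps18: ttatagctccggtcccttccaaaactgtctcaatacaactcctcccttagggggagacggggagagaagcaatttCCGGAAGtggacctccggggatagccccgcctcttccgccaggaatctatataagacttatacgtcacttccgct
Rps28: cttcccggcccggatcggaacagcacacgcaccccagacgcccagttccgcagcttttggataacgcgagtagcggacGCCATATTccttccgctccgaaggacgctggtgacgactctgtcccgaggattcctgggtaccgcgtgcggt
Rpl13a: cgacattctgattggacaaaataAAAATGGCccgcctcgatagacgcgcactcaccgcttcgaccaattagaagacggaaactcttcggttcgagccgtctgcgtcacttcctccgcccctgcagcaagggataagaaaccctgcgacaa
In Rpl41, Rps7 and Rps18 the capitals mark CCGGAAG or its reverse complement, and in Rps28 and Rpl13a they mark GCCATNTT or its reverse complement. Rps28 fell and Rpl13a rose after bleomycin in BALB/c lungs at 14 d, and both hold the latter motif.

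A few facts of the arrays bear on every value below. The titles of the 2 C57BL/6J saline 24 h arrays end in s1. That of C57BL/6J bleomycin 14 d a ends in s2a, and all others end in s2. The labels do not say what these endings mean. The 99th percentile of intensity ran from 5200 on BALB/c bleomycin 14 d b to 13000 on C57BL/6J saline 24 h a, while the trimmed mean was 799.9 on every array. The summed intensity of the lung epithelial markers on the array (5 of 8 genes listed) was lowest on BALB/c bleomycin 14 d b at 574.9, where Sftpc read 5.785. It was highest on the 2 s1 arrays at 190400 and 124900. The ratio of the 3′ to the 5′ Actb control probe sets was 2.254 and 1.487 on the s1 arrays and 0.01833 to 0.8719 on the others. For Gapdh it was 1.623 and 1.065 on the s1 arrays and 0.5828 to 2.156 on the others, highest on BALB/c saline 72 h a. H2-Ea, which C57BL/6J mice lack, read 4821 and 3622 on the saline 72 h arrays labelled C57BL/6J and 89.45 and 48.27 on those labelled BALB/c, against their labels. Results at 72 h are therefore given by label and also as the mean over both strains, which does not depend on the strain labels. Descriptions of the BALB/c saline 72 h arrays name bleomycin, and those of BALB/c saline 24 h name bleomycin or saline. Titles were followed.

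The ribosomal protein probe sets spread widely in brightness, with medians from 21.2 to 13110. Of the 46, 33 probe sets of 24 genes passed the filter, which asked for an intensity above 224.6 on at least 2 arrays, and 13 did not. Brightness is the median intensity of a probe set over the 24 arrays, and it reflects the probes as well as the mRNA. Of the 33 tested, 17 (51.5%) were in the brightest of 10 equal bins of all 8718 tested probe sets, at 3165 or more. They covered 15 genes, 8 probe sets of the large subunit and 9 of the small. Among the 100 brightest probe sets of the table, 6 were members. Rpl7 97695_s_at had a median of 13110 and was the brightest probe set of the array on 9 of the 24 arrays. Rpl7 binds RNA in the large subunit. The next in order were Rps4x 100780_at (12140), which is X-linked, Rps10 99093_at (9188), Rplp0 101213_at (8941), the base of the stalk that recruits elongation factors, and Rps7 101212_at (8849).

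The 13 members that were not tested had medians from 21.2 to 91.23 and no single value above 230.0. They include the dimmest 5: Rpl38 99626_i_at (21.2), Rps27l 160389_r_at (21.45), Rps4x 162229_at (25.96), Rps29 162335_at (39.05) and Rps15 100602_at (41.62). Rps27l, a p53-induced paralog of Rps27, read 9.525 to 41.03 over the 24 arrays, and at this level no change with bleomycin could be measured. For 8 of the 32 genes no probe set was tested. Rpl32 160478_r_at and Rps4x 162498_r_at, with medians of 59.31 and 66.1, each passed the filter on 2 arrays only. For Rpl32 these were BALB/c bleomycin 24 h b (294.9) and 14 d a (226.4). For Rps4x 162498_r_at they were BALB/c bleomycin 14 d a (266.4) and C57BL/6J saline 14 d a (228.1). Their differences in comparisons with those groups are therefore not independent of the filter. Probe sets of the same gene could differ widely in brightness. Rpl7 97697_at had a median of 54.53 beside the 13110 of its other probe set, and Rps4x ran from 25.96 to 12140 over 5 probe sets. In 6 of the 10 genes with more than 1 probe set, the brightest was over 10 times the dimmest. Rpl19 (6762 and 277.1), Rps24 (7047 and 151.2) and Rps28 (8156, 5453 and 146.9) are among these. The probe set 97696_r_at, named Rps24, and 97695_s_at, named Rpl7, were designed from the same GenBank entry, so the name of the former is uncertain.

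**Figure D1:**
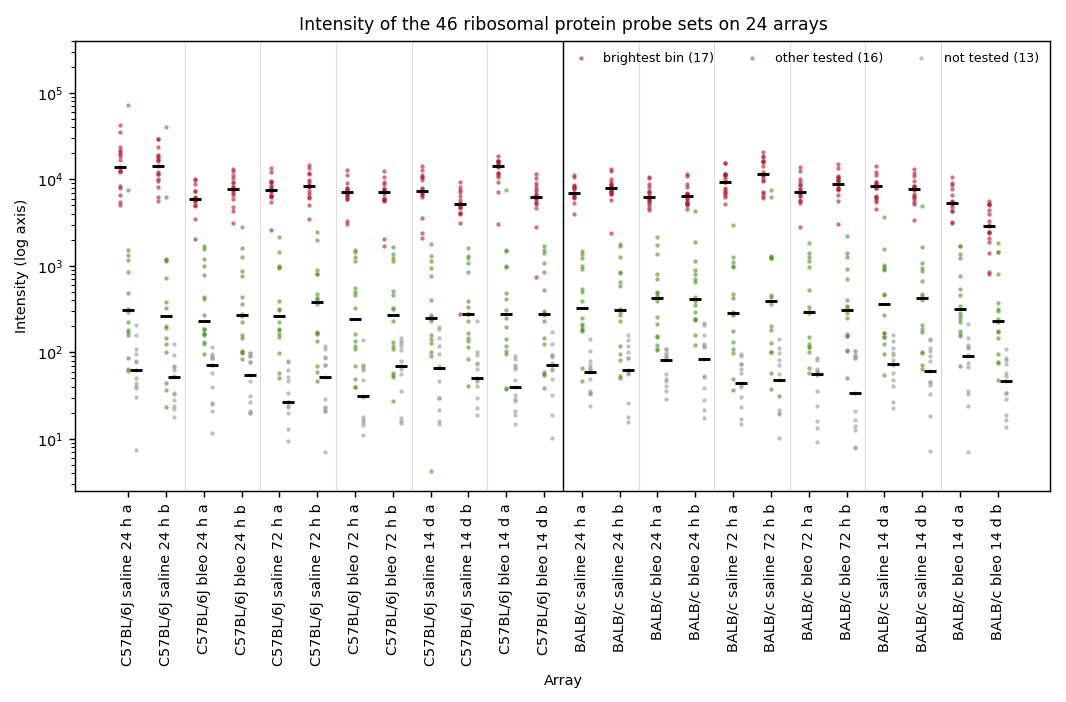
Intensity (log axis) of the 46 ribosomal protein probe sets on each of the 24 arrays. Points are probe sets in 3 classes by brightness, and black bars are the class medians. The median of the 17 bright probe sets ran from 2872 on BALB/c bleomycin 14 d b to 14390 on C57BL/6J saline 24 h b.

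Most bright members were high on the same arrays and low on the same arrays, in part without regard to group. The median intensity of the 17 was 13880 and 14390 on the C57BL/6J saline 24 h arrays and 5336 and 2872 on the BALB/c bleomycin 14 d arrays. Of the 17, 16 were above their own median on C57BL/6J bleomycin 14 d a and 2 on BALB/c bleomycin 14 d b. The exceptions include Rpl10a 161327_f_at, which read 3025 on the former, and Rps19, which read 3989 on the latter. The 2 arrays of a group could differ as much as groups did. It was 14080 and 6269 on the C57BL/6J bleomycin 14 d arrays a and b, and 7255 and 5133 on the C57BL/6J saline 14 d arrays. The median absolute difference between a and b over the 33 tested members was 0.83 on the log2 scale for BALB/c bleomycin 14 d and 0.65 for C57BL/6J bleomycin 14 d. It was 0.09 for BALB/c saline 14 d, the closest pair.

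BALB/c bleomycin 14 d b gave the lowest value for 14 of the 17 (82.4%), and 34.1% of the 854 other probe sets in that bin were also lowest there. Both C57BL/6J saline 24 h arrays were above all 22 others for 8 of 17 (47.1%), against 10.8% of the other bright probe sets. Members were brighter than most of that bin. In the brightest 2% of tested probe sets (175, at 6822 or more, a class added after the values were seen), there were 10 members and 165 others. In that class BALB/c bleomycin 14 d b was lowest for 100% of members and 81.2% of others, and the s1 arrays were highest for 60% and 33.9%. Of the 165, 19 carry several names that include a ribosomal protein gene.

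**Figure D2:**
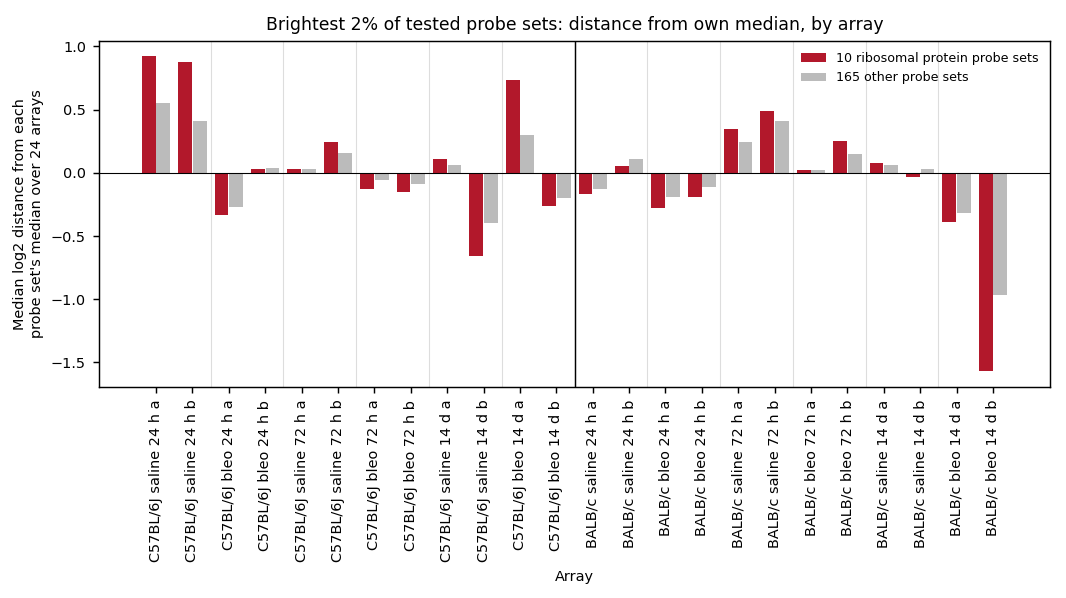
Median log2 distance of each array from each probe set's own median over the 24 arrays, for 10 ribosomal protein probe sets and 165 others in the brightest 2% of those tested. Both classes point the same way on the arrays that stand furthest out, and the members reach further, with -1.57 against -0.97 on BALB/c bleomycin 14 d b.

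On the arrays that stand furthest out, the members of that class lay on the side of the other bright probe sets and further from their median. On C57BL/6J bleomycin 14 d a the median distance from a probe set's own median was 0.73 for members and 0.30 for others. On C57BL/6J saline 24 h a it was 0.92 and 0.55, and on array b 0.88 and 0.41. On C57BL/6J saline 14 d b it was -0.66 and -0.40. The spread of the bright members was narrower on scales that adjust each array for brightness or range. Over the 22 arrays without s1, the median SD of the 17 was 0.50 on the log2 scale. It was 0.37 after cyclic loess normalization, which removes differences that depend on brightness, and 0.34 relative to each array's 99th percentile. Each was smaller for 15 of the 17. Bright members themselves help to set the 99th percentile, so that scale cannot tell array range from a shift of the members.

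At 24 h in C57BL/6J lungs, 4 of the 33 tested members were lower after bleomycin and 0 higher. Over all probe sets 1.03% were called lower and 1.19% higher. Of the 17 bright members 16 had a negative difference, with a median of -0.75, beside -0.11 for the 854 other bright probe sets. In the brightest 2% the medians were -0.92 and -0.62, and 30% of members and 7.88% of others were called. The control group here is the pair of s1 arrays. Red cell markers (3 tested, 0 called higher and 1 lower) stood apart there too, with sums of 69120 and 40650 on the s1 arrays and at most 16210 elsewhere. Lung markers had 0 called higher and 3 lower of 5. The part of either in the members' values was not tested.

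Rpl41 100213_f_at, for the shortest protein of the ribosome, read 72340 and 39780 on the C57BL/6J saline 24 h arrays and 270.2 and 363.9 after bleomycin. On the other 20 arrays it lay between 4.299 and 7487. The 2 saline arrays stood far above every other array, and the bleomycin arrays lay within the range of the other 20. The difference was -7.05 ± 0.85 (SE, 2 arrays against 2, adjusted p = 0.000175).

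Rps28 100758_at, a small-subunit protein near the mRNA exit, read 20530 and 19240 after saline and 7277 and 8129 after bleomycin (-1.36 ± 0.30, adjusted p = 0.0234). Rpl8 96575_at, near the peptidyl transferase centre, read 19530 and 18570 against 3492 and 7297 (-1.89 ± 0.45, adjusted p = 0.035). The probe set 97696_r_at named Rps24 read 43000 and 28960 against 5826 and 8085 (-2.35 ± 0.57, adjusted p = 0.0396). In all 3 the high side was the s1 pair. Quantile normalization ended these 3 calls, with -0.25 for Rps28, -0.96 for Rpl8 and -0.79 for 97696_r_at, and took the median of the bright members to -0.14. Rps28 98085_f_at (-3.38 ± 1.05, adjusted p = 0.113), Rpl37a (-1.67, 0.179) and Rplp0 (-1.48, 0.139) had larger differences than the called Rps28 and were not called. At the positive end Rps28 98086_r_at (0.61), Rpl32 160478_r_at (0.54) and Rpl19 161961_at (0.32) were not called either. Without array a of the bleomycin group, or without either saline array, 1 member was called.

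The same 4 probe sets were higher in the s1 pair when it was set against C57BL/6J saline at 14 d, a comparison of saline with saline. There 6 members, 5 of them bright, were higher and 0 lower, where 1.86% of all tested probe sets were higher and 1.81% lower. Of the 854 other bright probe sets 8.31% were higher. In the brightest 2%, 40% of members and 22.4% of others were called. The differences were 8.27 ± 0.85 for Rpl41 (adjusted p = 0.000158), 4.80 ± 1.05 for Rps28 98085_f_at (0.0228) and 2.36 ± 0.57 for 97696_r_at (0.0334). They were 2.04 ± 0.45 for Rpl8 (0.0228), 1.74 ± 0.30 for Rps28 100758_at (0.00684) and 1.52 ± 0.38 for Rps18 98333_at (0.0374). After quantile normalization Rpl41 alone of the 6 was called (6.37). Without C57BL/6J saline 14 d b the differences were 9.14 for Rpl41, 3.14 for Rps28 98085_f_at and 1.63 for 97696_r_at. They were then 1.51 for Rpl8, 1.47 for Rps28 100758_at and 1.23 for Rps18. The C57BL/6J saline 14 d arrays of Rps18 read 7164 and 4697, and the s1 arrays 16950 and 16790. Rps4x 161654_r_at (-0.90), Rps4x 162498_r_at (-0.61) and Rps4l 98148_at (-0.40) were lowest and not called. With C57BL/6J saline 14 d as the control of the 24 h bleomycin arrays, the 4 differences became 1.22 for Rpl41, 0.38 for Rps28, 0.15 for Rpl8 and 0.01 for 97696_r_at, none called. Against the mean of those 2 control arrays none of the 4 was lower, but the 2 differed. On a and b, 97696_r_at read 11340 and 4068, and both bleomycin arrays (5826 and 8085) lay below a. Rpl8 read 6647 and 3101, with 3492 and 7297 after bleomycin. The 1 member called with that control was Rps4l 98149_s_at, which was lower. The s1 title and saline at 24 h cannot be told apart in C57BL/6J.

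In BALB/c lungs at 24 h, 0 members were called in either direction, where the background was 0.126% higher and 0.0918% lower. The bright members had a median of -0.25, and 14 of 17 were negative. The largest differences were 1.14 for Rpl32 160478_r_at, 1.08 for Rpl19 161961_at and 0.92 for Rpl37a, and the smallest -0.71 for Rps28 98085_f_at, -0.69 for Rpl41 and -0.40 for Rpl6. Rpl32 passed the filter only through BALB/c bleomycin arrays, 1 of them in this group, so its rank here is not independent of the filter. The difference between the strains' responses at 24 h was called for 0 of 33, where 0.0115% were called in each direction. Rpl41 differed most, at -6.36 ± 1.2 (adjusted p = 0.0776), followed by Rps28 98085_f_at at -2.68 and Rpl37a at -2.59. The highest were Rps28 98086_r_at (0.99), Rpl10a 100711_at (0.30) and Rps29 98523_at (0.25). These comparisons share the s1 control arrays with the C57BL/6J response.

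At 72 h few members moved. By the labels, 1 of 33 was lower in C57BL/6J and 0 higher (2.49% and 4.13% of all probe sets). It was Rpl19 161961_at, the dim probe set of a protein that bridges the subunits, which read 391.0 and 412.0 after saline and 117.1 and 118.6 after bleomycin (-1.24 ± 0.34, adjusted p = 0.0386). The bright Rpl19 97483_at read 7377 and 7344 against 6583 and 5815, and was not called (-0.25, adjusted p = 0.843). With saline arrays of the other times as the control, the difference of 161961_at was -0.30 and not called. The other extremes in C57BL/6J were Rps28 98085_f_at (-1.63), Rps4x 161654_r_at (-0.95), Rpl10a 100711_at (0.57), Rpl41 (0.55) and Rpl13a (0.51), none called.

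In BALB/c at 72 h 0 were called (0.619% higher and 0.7% lower over all probe sets). Rpl41 was lowest at -2.10, with 420.4 and 7487 after saline and 526.3 and 249.1 after bleomycin, so that 1 saline array carried the difference. Rps19 (-1.18) and Rpl37a (-1.05) came next, and the highest were Rps4x 161654_r_at (0.79), Rpl32 (0.32) and Rps24 93121_at (0.27). As the mean of both strains 0 were called (2.4% higher and 0.826% lower over all probe sets). The largest were 0.35 for Rpl10a 100711_at, 0.31 for Rpl13a and 0.16 for Rps4l 98149_s_at, and the lowest -1.04 for Rps28 98085_f_at, -0.88 for Rpl37a and -0.78 for Rpl41. The bright members' median was -0.27. The strain difference at 72 h, which rests on labels that H2-Ea goes against, was called for 0 members (1.82% and 1.24% over all). It ran from -1.74 for Rps4x 161654_r_at to 2.65 for Rpl41. Between these ends lay Rpl19 161961_at (-1.26), Rps28 98085_f_at (-1.17), 97696_r_at (1.02) and Rps19 (0.92).

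**Figure D3:**
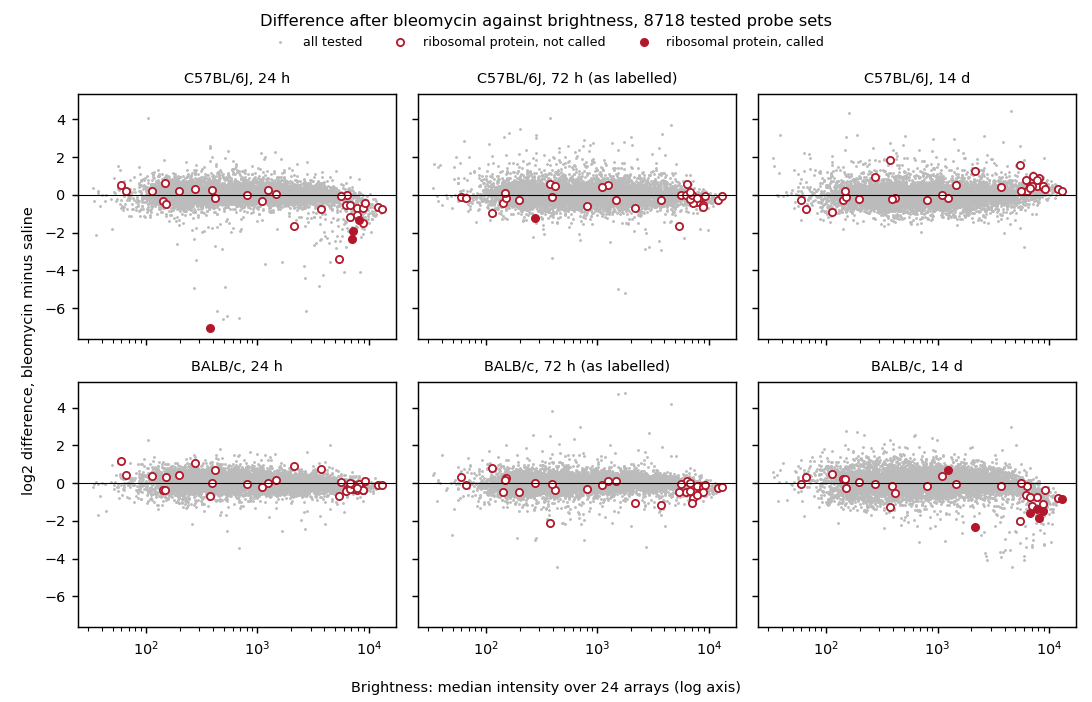
Log2 difference between bleomycin and saline against brightness (log axis), by strain and time, for 8718 tested probe sets in grey. Open red circles are ribosomal protein probe sets that were not called, and filled circles those called at an adjusted p under 0.05. Bright members lie below 0 in C57BL/6J at 24 h (16 of 17) and BALB/c at 14 d (16 of 17) and above 0 in C57BL/6J at 14 d (17 of 17).

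At 14 d the bright members lay low after bleomycin in BALB/c and high in C57BL/6J. In BALB/c 6 of 33 were lower and 1 higher, where 5.39% of all probe sets were lower and 7.89% higher. Of the 17 bright members 16 were negative, with a median of -0.86, and the 854 other bright probe sets had a median of -0.17. In the brightest 2% the medians were -1.18 and -0.71, and 40% of members and 37% of others were called. For the 16 tested members outside the bright bin the median was -0.05. The lung marker list fell too (0 higher and 3 lower of 5 tested), and its summed level was 1973 and 574.9 after bleomycin and 15280 and 14480 after saline. The dividing-cell markers rose (8 higher and 0 lower of 16), with sums of 10590 and 14450 against 7509 and 8514. The part of these shifts in the members' values was not tested.

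Rps28 100758_at read 3242 and 1400 on the BALB/c bleomycin 14 d arrays and 8003 and 8064 on the saline arrays. Both bleomycin arrays were below all 22 other arrays, of which the lowest read 4874. The difference was -1.87 ± 0.30 (adjusted p = 0.00123). Without array b it was -1.29 and still called. The other 2 probe sets of Rps28 did not pass. The bright 98085_f_at read 4301 and 855.0 against 8622 and 7773 (-2.02 ± 1.05, adjusted p = 0.214), and the dim 98086_r_at read 176.7 and 147.8 against 96.25 and 170.8.

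Rpl37a 93822_at, a zinc-binding protein of the large subunit, read 1705 and 318.7 after bleomycin and 3701 and 4904 after saline (-2.34 ± 0.61, adjusted p = 0.0182). Rpl19 97483_at read 4839 and 805.1 against 6460 and 6179 (-1.61 ± 0.52, adjusted p = 0.0484). Rpl7 97695_s_at read 10670 and 5160 against 14090 and 13110 (-0.86 ± 0.28, adjusted p = 0.0494). The calls of Rpl7 and Rpl19 were each lost in 19 of the 24 fits that left out 1 array, and after cyclic loess (-0.49 and -1.42). In these large-subunit members array b was the lower.

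Of the small subunit, Rps7 101212_at, which can bind Mdm2, read 5472 and 2872 after bleomycin and 11200 and 10980 after saline (-1.46 ± 0.32, adjusted p = 0.00859). Rps18 98333_at, in the small subunit head, read 5290 and 2467 against 9268 and 9559 (-1.36 ± 0.38, adjusted p = 0.0264). Array b was again the lower. Without it, Rps28 alone of the 7 called members was called, and the differences were -1.28 for Rpl37a, -1.01 for Rps7, -0.82 for Rps18, -0.38 for Rpl19 and -0.35 for Rpl7. Without array a instead, 13 members were lower and 1 higher, and without either saline array 1 was called. A bright member near 0 was Rpl10a 161327_f_at, which read 5277 and 5628 against 5478 and 5260 (0.02 ± 0.25).

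Rpl13a 92834_at was the 1 member that rose in BALB/c at 14 d. It is a large-subunit protein that can leave the ribosome to silence inflammatory mRNAs in myeloid cells. It read 1380 and 1850 after bleomycin and 970.0 and 957.9 after saline (0.68 ± 0.16, adjusted p = 0.0119). On all arrays it lay between 797.9 and 1850. After cyclic loess the difference was 0.56 (adjusted p = 0.0208), and without array b it was 0.48 and not called. Rps4x 161654_r_at (0.46) and Rps4l 98149_s_at (0.39) followed, and were not called.

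In C57BL/6J lungs at 14 d 0 of 33 were called, where 3.11% of all probe sets were higher and 4.31% lower. All 17 bright members had positive differences, with a median of 0.45, beside 0.08 for the other bright probe sets and 0.22 for the 165 in the brightest 2%. Heart muscle markers were lower there (0 higher and 6 lower of 9), with sums of 8128 and 12090 after bleomycin and 19580 and 19020 after saline. Lung marker sums were 59290 and 8167 against 9386 and 1354 (0 of 5 called), and the leukocyte sum was the highest of all 24 arrays on bleomycin array a (42840). The part of these in the members' values was not tested. The largest were Rpl41 (1.82 ± 0.85, adjusted p = 0.215), Rps28 98085_f_at (1.58) and Rpl37a (1.26). The smallest were Rps4x 161654_r_at (-0.94), Rps4x 162498_r_at (-0.77) and Rpl32 (-0.30). The 2 bleomycin arrays differed from each other. Rps28 100758_at read 14750 on array a and 8467 on b, and 7116 and 4874 after saline (0.91 ± 0.30, adjusted p = 0.0698). Rpl8 read 16230 and 5318, and 6647 and 3101 after saline, so array b lay within the saline range. Without array a the median difference of all 33 went from 0.33 to 0.00, and without array b it went to 0.64. After cyclic loess Rps28 100758_at was called (0.79).

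The strains' responses at 14 d differed for 8 of the 33 tested members, 7 in the direction of C57BL/6J and 1 in that of BALB/c (2.52% and 4.81% of all probe sets were called in these directions). This contrast uses the same arrays as the 14 d responses above. The differences of the large subunit were 3.60 ± 0.86 for Rpl37a (adjusted p = 0.0226), 2.34 ± 0.63 for Rpl8 (0.0358) and 1.43 ± 0.42 for Rpl6 (0.0484). Those of the small subunit were 2.78 ± 0.42 for Rps28 100758_at (0.00244), 2.14 ± 0.54 for Rps18 (0.0279), 1.87 ± 0.46 for Rps7 (0.025) and 1.18 ± 0.35 for Rps3 (0.0471). Rps3, at the mRNA entry of the small subunit, read 11800 and 7766 after bleomycin and 6798 and 7196 after saline in C57BL/6J. In BALB/c it read 6586 and 3288 against 8044 and 7540.

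Rpl6 read 11930 and 6168 against 6208 and 3938 in C57BL/6J and 5336 and 2985 against 6226 and 6354 in BALB/c. Rpl13a differed the other way, at -0.86 ± 0.23 (adjusted p = 0.0329), with 990.5 and 1078 against 1128 and 1244 in C57BL/6J. The largest difference that was not called was that of Rps28 98085_f_at (3.60 ± 1.49, adjusted p = 0.146), and Rpl41 had 3.1 ± 1.2 (adjusted p = 0.12). Rps4x 161654_r_at (-1.40) and 162498_r_at (-1.11) were lowest.

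Bright members as a class had a median strain difference of 1.43, and all 17 were positive. The 854 other bright probe sets had a median of 0.23 and the 165 others of the brightest 2% had 0.86. In that top class 50% of members and 18.2% of others were called. The calls of Rps3, Rpl6 and Rpl13a were lost after cyclic loess (0.82, 1.15 and -0.64), and those of Rps3 and Rpl6 also in 22 and 21 of the 24 fits without 1 array. After cyclic loess the median of the bright members was 1.15. C57BL/6J bleomycin 14 d a and BALB/c bleomycin 14 d b stand furthest from their partners. Without both, only Rps28 100758_at was called of the 33 (1.80 ± 0.29, adjusted p = 0.00974), the lone array of each group being assumed to vary like the other groups. Rpl37a was then 1.50, Rpl8 1.14, Rps7 0.97, Rps18 0.90, Rpl6 0.55, Rps3 0.39 and Rpl13a -0.60. Rplp0 went from 1.6 to -0.01.

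**Figure D4:**
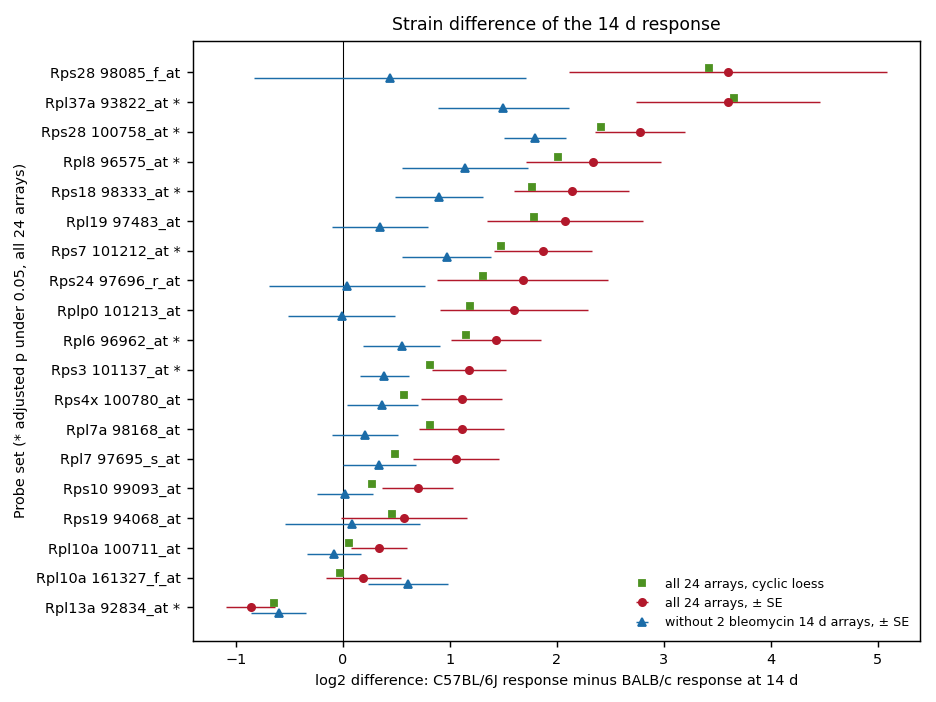
Log2 difference between the C57BL/6J and BALB/c responses to bleomycin at 14 d for the bright ribosomal protein probe sets and the others that were called, with all arrays (circles, ± SE), after cyclic loess (squares) and without 1 bleomycin 14 d array of each strain (triangles, ± SE). Rps28 100758_at keeps 1.80 of its 2.78 without those 2 arrays, and Rplp0 moves from 1.6 to -0.01.

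Averaged over the 3 times after bleomycin, 1 of 33 members was higher in C57BL/6J and 0 lower, where 5.06% of all probe sets were higher and 6.6% lower. It was Rps28 100758_at (0.67 ± 0.17, adjusted p = 0.0177). Outside 14 d its bleomycin arrays read 7277 to 8129 in C57BL/6J and 8078 to 9959 in BALB/c, so it was not higher in C57BL/6J at 24 h or 72 h. Without the 2 bleomycin 14 d arrays above it was 0.34 and not called. Rpl19 97483_at (0.64) and Rps18 (0.55) were next, and Rpl32 (-0.59), Rps4x 161654_r_at (-0.52) and Rps28 98085_f_at (-0.41) were lowest, none called.

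Between 24 h and 14 d after bleomycin, averaged over the strains, 1 member rose and 2 fell, where 8.4% of all probe sets rose and 9.02% fell. Rps4l 98149_s_at, a paralog of Rps4x, read 999.7 and 869.4 at 24 h and 1497 and 1542 at 14 d in C57BL/6J. In BALB/c it read 709.1 and 887.7 at 24 h and 1223 and 1430 at 14 d. All 4 arrays at 14 d were above all 4 at 24 h, and the difference was 0.66 ± 0.13 (adjusted p = 0.00194). It was called in every alternative fitted, including each array left out in turn, and ranged from 0.58 to 0.74. Saline arrays read 1180 and 1170 at 24 h and 1797 and 1304 at 14 d in C57BL/6J. In BALB/c they read 1003 and 834.7 at 24 h and 908.7 and 1068 at 14 d. The differences to saline at 14 d were -0.01 in C57BL/6J and 0.39 in BALB/c, not called. Both BALB/c bleomycin arrays at 14 d lay above both saline arrays. Whether the change with time differed from that after saline was not tested. The other probe set of Rps4l, 98148_at, had -0.15 ± 0.22.

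Rps28 100758_at (-0.67 ± 0.21, adjusted p = 0.0356) and Rps29 98523_at (-0.40 ± 0.13, adjusted p = 0.0427) fell. The call of Rps29 was lost in 12 of the 24 fits without 1 array and in 6 of 10 other alternatives, among them cyclic loess (-0.32, adjusted p = 0.106). Rps29, a zinc-binding protein of the small subunit, read 440.4 and 435.9 at 24 h and 310.3 and 305.0 at 14 d in C57BL/6J, and 494.7 and 654.8 against 459.1 and 374.4 in BALB/c. Rps28 fell by 0.38 without BALB/c bleomycin 14 d b and was not called. Rpl32 (-0.67), Rpl37a (-0.56), Rpl10a 100711_at (0.14) and Rpl19 161961_at (0.12) were the other extremes.

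**Figure D5:**
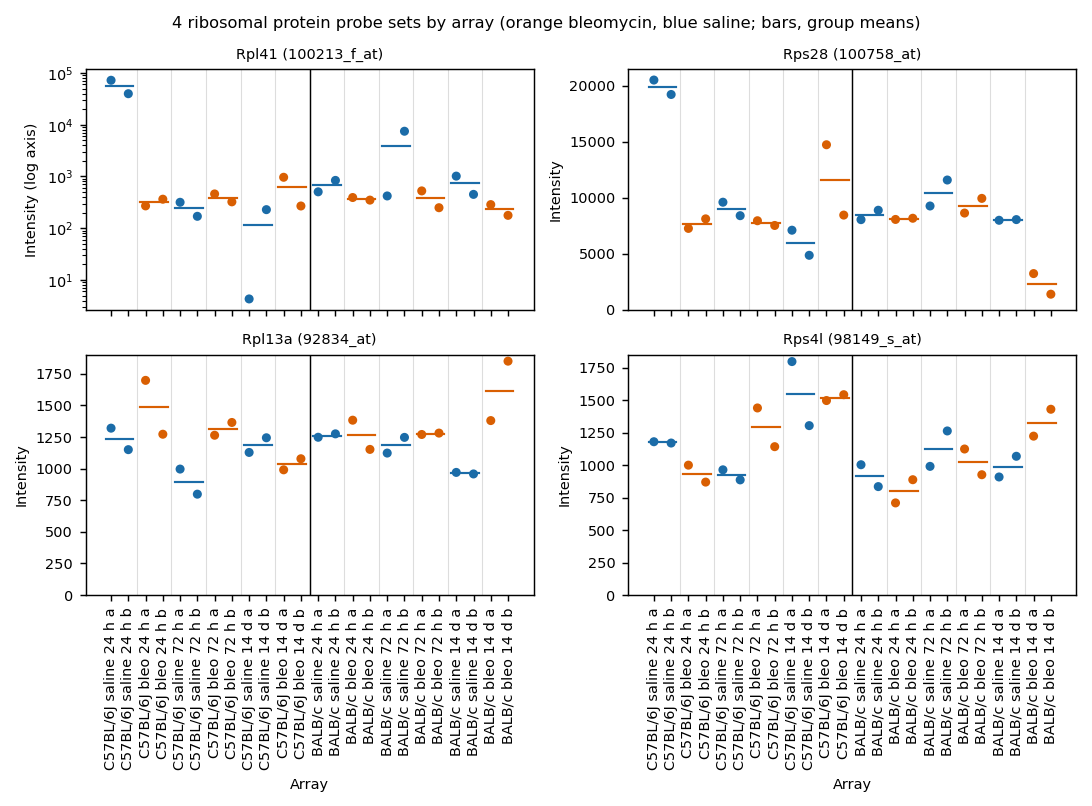
Intensity of Rpl41 100213_f_at (log axis), Rps28 100758_at, Rpl13a 92834_at and Rps4l 98149_s_at on each array. Orange points are bleomycin, blue points saline, and bars the means of the 2 arrays. Rpl41 reads 72340 and 39780 on the C57BL/6J saline 24 h arrays and at most 7487 elsewhere, and Rps28 reads 3242 and 1400 on the BALB/c bleomycin 14 d arrays and at least 4874 elsewhere.

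Rpl22, needed for T cell development, had a median of 799.2 in 92857_at and 412.6 in 92856_at, and neither was called in any of the 13 comparisons. The largest difference of 92857_at was -0.61 ± 0.21 in C57BL/6J at 72 h (adjusted p = 0.0982). Rps27 96301_at read 956.2 to 2006 and was not called, with 0.51 ± 0.17 at 14 d in C57BL/6J (adjusted p = 0.0826). Rps19, the gene most often mutated in Diamond-Blackfan anaemia, was not called either. Its 94068_at read 2068 to 8252, and its 2 arrays differed within groups, as in C57BL/6J bleomycin 14 d with 7069 and 2779. Rpl3, Rpl5, Rpl10, Rplp1 and Rps6 were on the array only in probe sets with several gene names.

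Probe sets that carry a ribosomal protein name with other names, mostly pseudogenes, were counted as a separate list. There were 38, of which 34 were tested and 23 were in the brightest bin. In BALB/c at 14 d 10 were lower and 0 higher, with a median of -0.65 over the 34. The shares of all tested probe sets called in each comparison, given above, are the background for this and the next lists. Of the 854 bright probe sets that are not members, which include these 23, 15.3% were lower there and 4.57% higher. Rpl10 (-1.53 ± 0.38, adjusted p = 0.0142) and Rps6 (-1.17 ± 0.30, adjusted p = 0.0169), the substrate of the S6 kinases, were among the 10 lower. In C57BL/6J at 24 h 5 were lower and 0 higher. For the strain difference at 14 d 5 were higher and 0 lower, and in the saline comparison of the s1 pair 9 were higher and 0 lower. In C57BL/6J at 14 d, BALB/c at 24 h and all 72 h comparisons 0 were called. Of the near members outside the rule (6 tested), Rps3a1 fell in BALB/c at 14 d (-1.03 ± 0.28, adjusted p = 0.0222), as did Tpt1 (-3.10 ± 0.71, adjusted p = 0.00994).

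Other genes of translation were mostly dimmer. Of 66 tested probe sets for mitochondrial ribosomal proteins, 2 were in the brightest bin. In BALB/c at 14 d 12 were higher and 1 lower (7.89% and 5.39% over all probe sets), with a median of 0.37 beside 0.04 for all tested and -0.37 for the cytosolic members. Mrpl54 (1.18 ± 0.24, adjusted p = 0.00585) and Mrps24 (0.74 ± 0.14, adjusted p = 0.00329) rose, and Mrps18a fell (-0.79 ± 0.18, adjusted p = 0.00967). The strain difference at 14 d was lower for 5 and higher for 0. Summed over the list, intensity was highest on BALB/c bleomycin 14 d b (69670) and lowest on C57BL/6J saline 24 h a (51970), the reverse of the bright cytosolic members on these arrays. The upper quartile of the whole table was also highest on the former, at 1156. It was 1024 on the latter and lowest on C57BL/6J bleomycin 14 d a, at 996.3. The part of array range in the list's values was not tested.

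Of 45 tested probe sets for initiation, elongation and release factors, 7 were higher and 0 lower in C57BL/6J at 72 h (4.13% and 2.49% over all probe sets). As the mean of both strains 6 were higher and 0 lower (2.4% and 0.826%). In both, Etf1 and Eif1a each held more than 1 of the called probe sets, so fewer genes than probe sets were called. Etf1, the release factor that recognises stop codons, rose by 0.50 ± 0.10 in the mean of both strains (adjusted p = 0.0106). Eif6 rose by 0.49 ± 0.10 (adjusted p = 0.00898), a factor that keeps the subunits apart. In BALB/c at 14 d 2 were higher and 2 lower, and Eef1a1, the carrier of aminoacyl-tRNA, was lowest at -2.91 ± 0.84 (adjusted p = 0.0306). In C57BL/6J at 14 d 5 were higher, among them Eif1a (1.24 ± 0.21, adjusted p = 0.00266).

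Of 35 tested for ribosome biogenesis, 3 were higher in BALB/c at 14 d (Nop56, Nhp2 and Gnl3), 2 in C57BL/6J at 14 d (Rrs1 and Nhp2) and 0 lower in either. Over all probe sets 7.89% and 3.11% were higher, so the BALB/c count is near the background. Of 10 tested for S6 kinases and the mTOR pathway, 2 were higher in BALB/c at 14 d, Mtor (0.93 ± 0.17, adjusted p = 0.0025) and Pik3ca (0.90 ± 0.21, adjusted p = 0.0119). In C57BL/6J at 14 d 2 were lower, Mtor (-0.58 ± 0.17, adjusted p = 0.0443) and another probe set of Pik3ca (-0.79 ± 0.22, adjusted p = 0.0344). The strain difference was -1.51 ± 0.24 for Mtor (adjusted p = 0.00304), and 3 of the 10 were called lower.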

How the data were processed

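The deposited values are linear intensity, 1 per probe set and array. Which program summarised the probes is not stated in the sources used here. A trimmed mean (2nd to 98th percentile) of 799.9 on all 24 arrays was computed from the deposited intensity table, and no source states a scaling step. Control probe sets (66) were left out. Groups came from titles. An offset of 91.1 (the arrays' lower quartiles, median) preceded log2. The filter kept 8718 probe sets that passed 224.6, which is percentile 40 of the table, on 2 or more arrays. Using limma 3.58.1 (R 4.3.3), 12 group means were modelled, with variances moderated along an intensity trend. P-values are two-sided with Benjamini-Hochberg adjustment over the 8718, and a probe set was called under 0.05. Log2 differences are on the log2(value + offset) scale, which understates changes of dim probe sets. The script was tested on simulated data. The number of arrays limits the precision.

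Members and lists were chosen with earlier results of these data known. Named were all called members, the 3 highest and 3 lowest differences of each comparison, the 5 brightest and 5 dimmest members, genes with several probe sets, a fixed set of 14 well-studied members where the array had them, and up to 4 called genes of each other list by smallest p. Gene IDs of all 46 probe sets matched RefSeq with the same symbol. Alternatives were quantile and cyclic loess normalization, other offsets and filters, weights per array, a fit lacking the variance trend, a block on array letter, other controls at 24 h and 72 h in place of those doubted, and each array left out. After the values were seen, leaving out 2 bleomycin 14 d arrays and leaving out the brightest bin were added.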

Additional observations from a re-analysis of the deposited data

Results flagged for a closer look

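For 8 ribosomal protein probe sets the response to bleomycin at 14 d differed between the strains by the interaction contrast in limma (adjusted p under 0.05, 2 arrays a group). The C57BL/6J response minus the BALB/c response was 3.6 for Rpl37a, 2.78 for Rps28 100758_at, 2.34 for Rpl8, 2.14 for Rps18, 1.87 for Rps7, 1.43 for Rpl6 and 1.18 for Rps3, all on the log2 scale. It was -0.86 for Rpl13a. Without C57BL/6J bleomycin 14 d a and BALB/c bleomycin 14 d b, Rps28 was called at 1.8 and the other 7 were not. The summed lung markers read 59290 and 574.9 on those arrays, and the part of lung epithelial RNA in the differences was not tested.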

How the results depend on the processing

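Counts here are of called members, in either direction, against 4 in C57BL/6J at 24 h, 1 at 72 h and 0 at 14 d, 7 in BALB/c at 14 d, 8 for the strain difference at 14 d, 1 for strain under bleomycin, 3 between the times, 6 between the saline groups and 0 in the other comparisons. Quantile normalization gave 1 in C57BL/6J at 24 h, 2 there at 72 h, 1 in the both-strain mean at 72 h, 5 for the strain difference at 14 d and 1 between the saline groups. Cyclic loess gave 3 in C57BL/6J at 72 h, 1 there at 14 d and 5 for the strain difference at 14 d, and 5 of the 7 calls in BALB/c at 14 d remained, Rpl7 and Rpl19 being lost. With 3 times the offset, 1 was called for the strain difference at 24 h and 2 for strain under bleomycin. Without a filter the counts were 2 in C57BL/6J at 24 h, 0 at 72 h, 5 for the strain difference at 14 d and 2 for strain under bleomycin. The filter at percentile 60 gave 0 in C57BL/6J at 72 h, and no variance trend gave 2 for strain under bleomycin. Array weights gave 4 in C57BL/6J at 72 h, 2 in the both-strain mean and 2 for the strain difference at 14 d. Without the saline arrays of 72 h, 1 was called in BALB/c and 2 in the both-strain mean. With C57BL/6J saline 14 d as the control at 24 h, 1 was called, and the differences were 1.22 for Rpl41, 0.38 for Rps28, 0.15 for Rpl8 and 0.01 for 97696_r_at, none called. Without C57BL/6J bleomycin 14 d a and BALB/c bleomycin 14 d b together, 1 was called in BALB/c at 14 d and 1 for the strain difference. Without the brightest bin, 1 was called in C57BL/6J at 24 h, 2 in BALB/c at 14 d, 2 for the strain difference and 1 between the saline groups. The share of all probe sets called under each alternative is not given, so these counts have no background beside them. The cause of these shifts was not tested.

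Leaving out each array in turn gave 1 to 6 in C57BL/6J at 24 h, 0 to 3 at 72 h and 0 to 6 at 14 d. It gave 0 in BALB/c at 24 h, 0 to 1 at 72 h and 1 to 14 at 14 d, and 0 to 1 in the both-strain mean at 72 h. The strain difference had 0 to 1 at 24 h, 0 to 1 at 72 h and 1 to 14 at 14 d. Strain under bleomycin had 0 to 8, the times 1 to 6 and the saline groups 2 to 11. The counts of 14 came without BALB/c bleomycin 14 d a, and that of 6 in C57BL/6J at 14 d without bleomycin array b. A lone array is assumed to vary like the other groups. The share of all probe sets called in these fits is not given, so these counts too have no background beside them.

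With the array letter as a replicate block, 6 members were called in BALB/c at 14 d, Rpl7 being lost, and 7 for the strain difference at 14 d, Rpl6 being lost. Counts in the other comparisons were 4, 1 and 0 in C57BL/6J, 0 in BALB/c at 24 h and 72 h, 0 in the both-strain mean and in the strain differences at 24 h and 72 h, 1 for strain, 3 between times and 6 between saline groups. Over 66 pairs of groups the deviations of same-lettered arrays correlated at -0.2845 to 0.3079 (median 0.006614), and 14 pairs were over 0.1. The median shows no shift with the letter that all groups share. Whether the letters pair arrays between some of the groups cannot be told from these values.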
